A study of Mus musculus with 21 samples.

Results

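The 4 mouse Id genes (Id1, Id2, Id3 and Id4), which encode the inhibitors of DNA binding among the helix-loop-helix proteins, were followed across 21 Affymetrix arrays of cultured mouse cells with and without TGF-b1. They were taken by gene symbol from both value tables, which cover 18193 genes in NMuMG cells and 12393 genes in NM18 cells, and all 4 were measured in both. Where a gene had several probe sets, the one with the highest mean over the table's arrays stood for it, and the others were read as a check. Every value is a deposited expression value, read as log2 from its range, so a difference of 1 is a doubling, and levels were set only against levels of the same probe set in the same table.

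The first set used NMuMG, a line of mouse mammary gland epithelial cells. All its cells were grown for 2 h with 200 uM 4-thiouridine (4sU), a uridine analogue that marks RNA made in that time. The groups were TGF-b1 newly made RNA (5 ng/ml TGF-b1 for the same 2 h, then enriched for 4sU-labelled RNA), control newly made RNA (no TGF-b1, enriched), TGF-b1 total RNA and control total RNA (not enriched), with 3 arrays each. The second set used NM18 cells, a name the labels give with no further description, transfected with 25 nM siRNA for 48 h. Its groups were FoxQ1 siRNA with 5 ng/ml TGF-b1 for the last 40 h, scrambled control siRNA with the same TGF-b1, and control siRNA without TGF-b1, with 3 arrays each. FoxQ1 is a forkhead transcription factor. There was no FoxQ1 siRNA group without TGF-b1, and 4sU was given to all NMuMG cells, controls included. Each group holds 3 arrays that the study's design text calls biological replicates.

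Id proteins carry the helix-loop-helix domain that lets such factors pair, but lack the basic stretch that touches DNA. By pairing with E proteins (encoded by Tcf3, Tcf4 and Tcf12) they keep them, and the tissue-specific factors that pair with E proteins, off their E-box sites. BMP signals through SMAD1 and SMAD5 are the classic inducers of Id1, Id2 and Id3, while TGF-b lowers Id genes in many epithelial cells, and released E proteins can repress Cdh1, the gene of E-cadherin. In the mammary gland Id2 is known for its part in the growth of the milk-producing alveoli, and Id4 for its place in the basal layer.

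The windows from 250 bases before to 50 bases after the start site are shown for the 3 members held in the promoter table (RefSeq sequence, build GRCm38.p6), because SMAD proteins act on Id genes through promoter elements. Capitals mark the BMP-type SMAD element GGCGCC and the short SMAD element CAGAC, on either strand, where GTCTG is CAGAC read on the other strand. The Id3 window lies at chr4:136143572-136143871 on the plus strand, the Id2 window at chr12:25096043-25096342 on the minus strand and the Id4 window at chr13:48260866-48261165 on the plus strand.
Id3: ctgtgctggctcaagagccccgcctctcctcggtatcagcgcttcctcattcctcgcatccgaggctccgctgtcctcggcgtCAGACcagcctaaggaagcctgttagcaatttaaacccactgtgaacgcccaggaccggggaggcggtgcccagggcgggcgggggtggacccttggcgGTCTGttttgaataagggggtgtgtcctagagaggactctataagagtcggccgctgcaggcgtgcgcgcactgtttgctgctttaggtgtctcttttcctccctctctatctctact
Id2: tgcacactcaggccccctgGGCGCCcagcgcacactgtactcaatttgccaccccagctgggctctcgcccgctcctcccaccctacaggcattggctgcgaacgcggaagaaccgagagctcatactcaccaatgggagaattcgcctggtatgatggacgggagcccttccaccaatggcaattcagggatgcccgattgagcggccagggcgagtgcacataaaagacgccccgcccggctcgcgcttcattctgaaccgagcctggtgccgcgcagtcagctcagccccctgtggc
Id4: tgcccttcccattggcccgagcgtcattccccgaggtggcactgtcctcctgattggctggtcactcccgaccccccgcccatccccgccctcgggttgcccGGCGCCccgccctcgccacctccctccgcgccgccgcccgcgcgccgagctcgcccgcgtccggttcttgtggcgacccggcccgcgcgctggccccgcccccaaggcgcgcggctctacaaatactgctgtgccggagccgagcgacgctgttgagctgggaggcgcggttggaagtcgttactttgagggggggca
The element GGCGCC occurred once each in the Id2 window (first base 231 before the start site) and the Id4 window (148 before it), and not in the Id3 window. It was present in 11.9% of all 32841 promoter windows of the same length. CAGAC had 2 matches in the Id3 window, at 167 and 68 bases before the start site, and was found in 49.6% of all windows. The E-box CANNTG, the site of bHLH pairs, had 1 match in the Id2 window and occurred in 72.3% of windows. These are matches of letters and show no binding, and their part in the changes of the Id genes was not tested.

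The cells were checked against cell type markers. Markers were placed by their mean over all arrays of a table, not group by group. Of 8 epithelial markers 6 lay above the median gene of the NMuMG table and 4 above that of the NM18 table. None of the 3 basal, 5 endothelial or 5 macrophage and leukocyte markers lay above it in either table, and of 5 fibroblast markers 1 did in NMuMG cells and 0 in NM18 cells. Foxq1, the gene the siRNA was aimed at, had log2 values of 7.57, 8.09 and 7.97 with FoxQ1 siRNA and TGF-b1, against 9.08, 9.04 and 9.33 with control siRNA and TGF-b1. It was 1.27 ± 0.16 lower on the log2 scale (a log2 change of -1.27, SE, limma adjusted p = 0.000291), as the siRNA labels say. A free-text note on array 1 of untreated control siRNA, like that on array 1 of FoxQ1 siRNA, describes a protocol with TGF-b1. The titles were followed, and results were also computed without array 1 of every group.

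After 2 h of TGF-b1 Id3 and Id2 were lower in NMuMG cells, in newly made and in total RNA alike, and Id3 had the larger fall. Differences were tested with limma over all genes of a table, two-sided, and called at a Benjamini-Hochberg adjusted p under 0.05. In newly made RNA 2 of the 4 Id genes were called, both lower, where 2.79% of all genes were called lower. The median log2 change of the 4 was -0.53, against -0.01 over all genes. In total RNA the same count was 2 of 4, where 1.02% of all genes were called lower, with a median of -0.74 against -0.03. Same-numbered arrays deviated together within each kind of RNA, so a paired fit, with the number as a block within each kind, was set beside this one. It called 2 of 4 lower in newly made RNA, where 6.59% of all genes were called lower, and 3 of 4 in total RNA, where 2.63% were. The arrays hold RNA of whole cultures, so fewer cells that express a gene and less RNA of it per cell cannot be told apart. Of the 8 epithelial markers, Cldn4 rose by 1.01 (log2) and Krt19 had a log2 change of -1.09 in newly made RNA, and Cldn4 rose by 1.62 in total RNA. The mean log2 value of the 8 per array ran from 8.69 to 8.99 with TGF-b1, against 8.68 to 8.82 in controls, in newly made RNA. In total RNA it ran from 9.71 to 9.83 with TGF-b1, against 9.54 to 9.63 in controls. No other marker was called, except Pdgfrb in both kinds of RNA and Tek in total RNA by the paired fit. The part of these markers in the Id changes was not tested.

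Id3, whose protein is one of the broadly expressed members of the family, had log2 values of 7.80, 8.05 and 7.84 in TGF-b1 newly made RNA, against 8.95, 9.47 and 9.37 in control newly made RNA. In total RNA it had 7.63, 7.62 and 7.73 with TGF-b1, against 9.03, 8.92 and 9.48 in controls. Every TGF-b1 array was lower than every control array in both kinds of RNA. This was a log2 change of -1.37 ± 0.16 in newly made RNA (SE, adjusted p = 4.09e-05) and -1.49 ± 0.16 in total RNA (adjusted p = 2.95e-05). The mean with TGF-b1 came to 38.8% of that in controls for newly made and 35.7% for total RNA. Both calls held under every alternative run, and with single arrays left out the log2 change stayed between -1.52 and -1.27 in newly made RNA and between -1.60 and -1.31 in total RNA.

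Id2 was read at log2 values of 12.64, 12.55 and 12.40 in TGF-b1 newly made RNA, against 13.21, 13.16 and 13.10 in control newly made RNA. In total RNA the values were 12.25, 12.17 and 11.63 with TGF-b1, against 12.92, 12.69 and 12.57 in controls. The groups did not overlap in either kind of RNA, and array 3 of TGF-b1 total RNA was the lowest of all 12. The change came to -0.63 ± 0.15 in newly made RNA (adjusted p = 0.0194) and -0.71 ± 0.15 in total RNA (adjusted p = 0.015), or 64.8% and 61.1% of the control mean. The newly made call was lost without control array 2 (adjusted p = 0.0658) and without TGF-b1 array 2 (0.0551) or 3 (0.0989). The total RNA call was lost without control array 1 (adjusted p = 0.0992) or 2 (0.0534) and without TGF-b1 array 3 (log2 change of -0.52, adjusted p = 0.076). The log2 change kept its sign in all of these. With all arrays, the paired fit also called Id2 lower in both kinds of RNA.

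The other 2 probe sets of Id2 gave larger falls than the one that stood for the gene. In a fit over all probe sets 1422537_a_at fell by 1.16 in newly made RNA (a log2 change, adjusted p = 0.0203) and by 1.27 in total RNA (adjusted p = 0.0221). Probe set 1453596_at fell by 1.21 (adjusted p = 0.000201) and 1.181 (adjusted p = 0.000483). The 3 probe sets of Id2 thus moved the same way at 2 h.

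Id1, a classic target gene of BMP signals, did not pass the unpaired test at 2 h. Its log2 values were 9.29, 8.97 and 8.88 in TGF-b1 newly made RNA, against 9.86, 9.11 and 9.50 in control newly made RNA, and these overlapped. In total RNA they were 9.51, 9.31 and 9.51 with TGF-b1, against 9.94, 9.60 and 11.10 in controls, with control array 3 more than 1 log2 unit above every other array of the table. Limma gave a log2 change of -0.44 in newly made RNA (95% confidence interval -1.04 to 0.15, adjusted p = 0.533) and -0.77 in total RNA (-1.37 to -0.17, adjusted p = 0.282). In total RNA the groups did not overlap, but without control array 3 the log2 change was -0.32 (adjusted p = 0.907). The paired fit called the total RNA change of -0.77 (adjusted p = 0.00582, lower in 3 of 3 pairs). That call was lost without number 3 of every group, at -0.36 (adjusted p = 0.192), and held without number 1 (-0.94) or 2 (-1.01).

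Id4 gave readings that depended on the probe set. The probe set that stood for the gene, 1423260_at, had log2 values of 5.93, 5.90 and 6.04 in TGF-b1 newly made RNA, against 5.78, 5.88 and 5.42 in control newly made RNA. In total RNA it had 5.62, 5.697 and 5.96 with TGF-b1, against 5.76, 5.83 and 5.68 in controls. Neither difference passed the test. The log2 change was 0.26 in newly made RNA, where the groups did not overlap (95% confidence interval -0.02 to 0.54, adjusted p = 0.367), and 0.01 in total RNA (adjusted p = 0.995).

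The other 2 probe sets of Id4 rose with TGF-b1, but from low values. In every NMuMG array all probe sets of Id4 lay below the median gene of the table (6.67). Probe set 1450928_at had log2 values of 6.18, 5.87 and 6.47 in TGF-b1 newly made RNA, against 5.36, 5.31 and 5.18 in control newly made RNA. In total RNA it had 5.44, 5.43 and 5.02 with TGF-b1, against 4.54, 4.14 and 4.09 in controls. Every TGF-b1 array was above every control array of its kind of RNA. This was a log2 change of 0.89 ± 0.17 in newly made RNA (adjusted p = 0.00415) and 1.04 ± 0.17 in total RNA (adjusted p = 0.00248). Probe set 1423259_at rose by 0.75 (adjusted p = 0.0132) and 0.92 (adjusted p = 0.00608) on the log2 scale. The probe sets of Id4 thus disagreed at 2 h in the size of the change and in passing the test. Each had a positive log2 change, but that of 1423260_at was only 0.26 in newly made and 0.01 in total RNA. With single arrays left out, its total RNA change ran from -0.094 to 0.074, so its direction there is uncertain. Which probe set reads Id4 best was not tested.

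**Figure D1:**
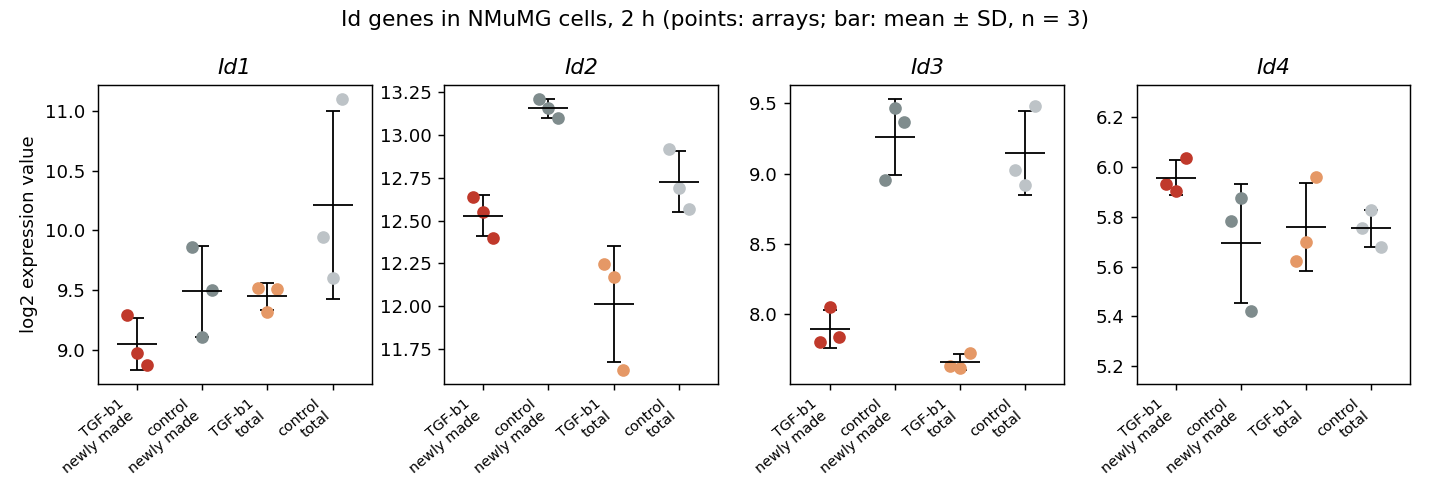
Log2 expression value (y axis) of each Id gene in the 12 NMuMG arrays, by group (x axis), with points for arrays and bars for the mean ± SD of 3. Id3 and Id2 lie lower in both TGF-b1 groups than in their controls, control total RNA array 3 stands at 11.10 for Id1, and Id4 stays between 5.42 and 6.04.

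The TGF-b1 effect was set against itself between the kinds of RNA, which asks whether the change in RNA made during the 2 h exceeds that in the pool. None of the 4 Id genes passed this test in limma (adjusted p = 1 for each, 0 of 4 at an unadjusted p under 0.05), where 0.066% of all genes were called. The difference in log2 change, newly made less total, was 0.12 for Id3 and 0.08 for Id2. For Id1 its 95% confidence interval ran from -0.52 to 1.17.

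Newly made and total RNA were also compared directly, which reads how much of each gene's signal is recent relative to the other genes. Without TGF-b1, Id2 was higher in newly made RNA than in total RNA by 0.43 ± 0.15 (log2, adjusted p = 0.0297), where 17.2% of all genes were called higher. Id1 was lower by 0.72 (a log2 change of -0.72, adjusted p = 0.0474), where 26.8% were called lower. With TGF-b1, Id2 was again higher, by 0.51 ± 0.15 (adjusted p = 0.0104), where 18.3% were called higher, and Id1 had a log2 difference of -0.40 (adjusted p = 0.285). Id3 had log2 differences of 0.12 (adjusted p = 0.599) without and 0.24 (adjusted p = 0.259) with TGF-b1, and Id4 -0.06 (adjusted p = 0.76) and 0.20 (adjusted p = 0.259). The Id4 readings differed by probe set. In a fit over all probe sets 1450928_at was called higher, by 1.02 (adjusted p = 8.66e-05) without and 0.88 (adjusted p = 0.000365) with TGF-b1. Probe set 1423259_at had 0.03 (adjusted p = 0.899) and -0.13 (adjusted p = 0.558). Centring each array on its median moved the median of all genes by -0.25 without and -0.23 with TGF-b1, and the Id2 calls did not hold. Id2 then had 0.18 (adjusted p = 0.304) without and 0.29 (adjusted p = 0.117) with TGF-b1, and Id4 was called lower without it (log2 difference of -0.31, adjusted p = 0.0478). The Id1 call was lost in 8 of 12 fits that left out 1 array, among them the one without control total RNA array 3, with a log2 difference of -0.28 (adjusted p = 0.293), and the Id2 call with TGF-b1 without TGF-b1 total RNA array 3 (0.32, adjusted p = 0.0697). Without TGF-b1, the Id2 call was lost without control total RNA array 2 (adjusted p = 0.0774) or 3 (0.115) and without control newly made array 1 (0.0652) or 2 (0.0671).

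The group means of Id3 were 7.89 ± 0.13 and 9.26 ± 0.27 for TGF-b1 and control newly made RNA and 7.66 ± 0.06 and 9.14 ± 0.30 for TGF-b1 and control total RNA (SD, n = 3 each). From lowest to highest the order was TGF-b1 total, TGF-b1 newly made, control total and control newly made RNA, and the difference within neither the lower nor the upper pair passed the test. The means of Id2 were 12.53 ± 0.12 and 13.16 ± 0.06 for TGF-b1 and control newly made RNA and 12.02 ± 0.34 and 12.73 ± 0.18 for TGF-b1 and control total RNA. Its order was the same, and among neighbours only the ranges of TGF-b1 newly made and control total RNA overlapped. The means of Id1 were 9.05 ± 0.22 with TGF-b1 and 9.49 ± 0.38 in controls for newly made RNA, and 9.45 ± 0.11 with TGF-b1 and 10.22 ± 0.79 in controls for total RNA. Its lowest group was TGF-b1 newly made and its highest control total RNA, and among neighbours only the groups given TGF-b1 had ranges that did not overlap. The means of Id4 lay between 5.69 and 5.96, and the ranges of neighbours in their order overlapped.

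After 40 h of TGF-b1 in NM18 cells under control siRNA, Id1, Id2 and Id3 were all lower, and Id2 fell the most. The count was 3 of 4 called lower, where 17.5% of all genes were called lower, and the median log2 change of the 4 was -1.29 against 0.0049 over all genes. Id2 had log2 values of 10.03, 10.36 and 10.14 with TGF-b1, against 12.76, 12.57 and 12.90 without. Id1 had 10.71, 10.86 and 10.94 with TGF-b1, against 12.46, 12.41 and 12.95 without. Id3 had 8.42, 8.38 and 8.48 with TGF-b1, against 9.01, 9.23 and 9.43 without. The arrays with TGF-b1 lay below all arrays without it for each of the 3 genes, by more than 1 log2 unit for Id1 and Id2.

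The log2 change at 40 h was -2.57 ± 0.17 for Id2 (adjusted p = 2.69e-06), which leaves 16.9% of the untreated mean. It was -1.77 ± 0.15 for Id1 (adjusted p = 1.11e-05, 29.2%) and -0.80 ± 0.14 for Id3 (adjusted p = 0.00103, 57.4%). These 3 calls held under every alternative run, including without array 1 of every group. The other 2 probe sets of Id2 fell by 2.60 and 1.77 on the log2 scale. Id4 had 6.04, 6.20 and 5.98 with TGF-b1, against 6.06, 6.12 and 5.94 without, and these overlapped. Its log2 change was 0.03 (95% confidence interval -0.13 to 0.20, adjusted p = 0.815), and neither of its other probe sets passed the test. At 40 h 1 of 8 epithelial markers rose (Cldn4) and 2 fell (Krt19 and Cdh1), where 13.2% of all genes rose and 17.5% fell. The mean log2 value of the 8 per array ran from 9.67 to 9.72 with TGF-b1, against 9.95 to 10.01 without. Of the 5 macrophage and leukocyte markers Csf1r rose by 0.36 (log2), with means over the 5 of 6.36 to 6.41 with TGF-b1, against 6.29 to 6.38 without. With the number as a block 1 of 5 fibroblast markers, Pdgfra, was also called higher, where 17% of all genes were. The part of these markers in the Id changes was not tested. Id3 had the largest log2 fall of the 4 in NMuMG cells at 2 h and Id2 in NM18 cells at 40 h. Cell line, time, array type and 4sU all differ between these sets, so the orders stand side by side and were not tested against each other.

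**Figure D2:**
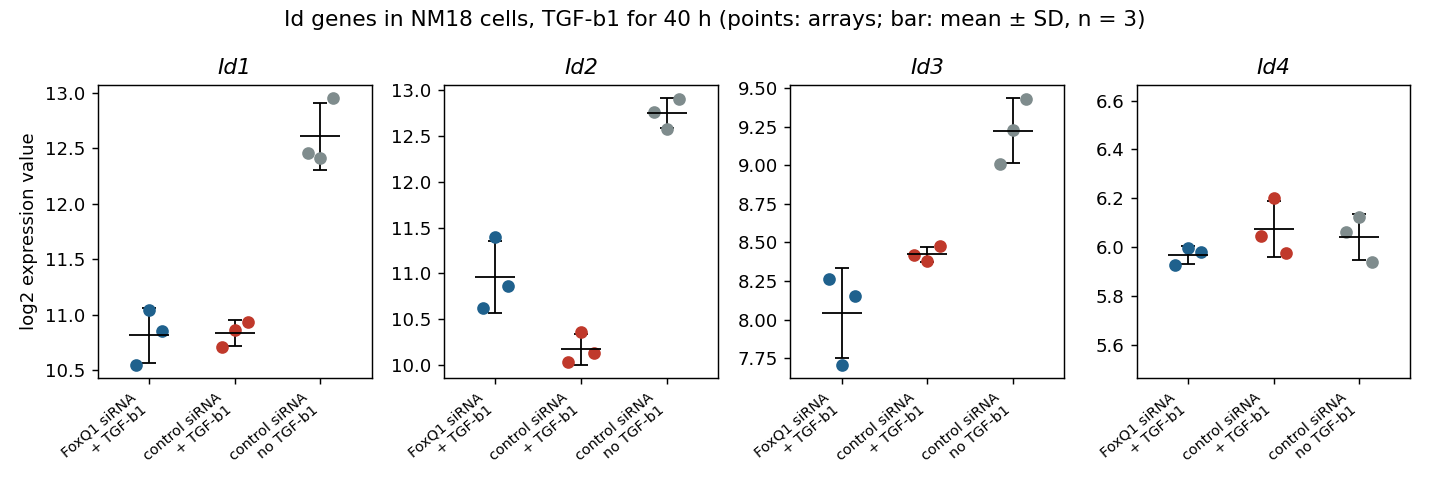
Log2 expression value (y axis) of each Id gene in the 9 NM18 arrays, by group (x axis), with points for arrays and bars for the mean ± SD of 3. Id1, Id2 and Id3 lie lower in both groups with TGF-b1 than without it, Id2 is higher with FoxQ1 siRNA than with control siRNA, and Id4 stays between 5.93 and 6.20.

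With TGF-b1 present, FoxQ1 siRNA went with a higher Id2 than control siRNA, while Id1 did not pass the test. Of the 4 genes 1 was called higher, where 11.3% of all genes were, and 0 lower, where 8.28% were. The median log2 change of the 4 was -0.06 against -0.0048 over all genes. Id2 had log2 values of 10.63, 11.39 and 10.86 with FoxQ1 siRNA, against 10.03, 10.36 and 10.14 with control siRNA. All FoxQ1 siRNA arrays were higher, with array 2 the highest. The change came to 0.78 ± 0.17 (adjusted p = 0.00677), a 1.72-fold higher mean. Left-out single arrays moved it between 0.57 and 0.95, and the call held in each of these fits (highest adjusted p = 0.0358).

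The probe sets of Id2 did not all show this rise. Probe set 1422537_a_at had 10.13, 11.25 and 10.33 with FoxQ1 siRNA, against 9.50, 10.09 and 9.62 with control siRNA, and rose by 0.83 on the log2 scale (adjusted p = 0.0391). Probe set 1453596_at had 6.28, 6.86 and 6.22 with FoxQ1 siRNA, against 6.14, 6.52 and 6.22 with control siRNA, and its log2 change was 0.16 (adjusted p = 0.666). These values lay below the median gene of the table (7.79), while those of the other 2 probe sets lay above it. With the mean of the 3 probe sets the change was 0.59 (adjusted p = 0.0567).

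Id1 had log2 values of 10.55, 11.04 and 10.85 with FoxQ1 siRNA and TGF-b1, against 10.71, 10.86 and 10.94 with control siRNA and TGF-b1. These overlapped, and the log2 change was -0.02 (95% confidence interval -0.35 to 0.31, adjusted p = 0.948). Id3 had 8.26, 7.71 and 8.15 with FoxQ1 siRNA, against 8.42, 8.38 and 8.48 with control siRNA. The Id3 groups did not overlap, with FoxQ1 siRNA array 2 the lowest. The log2 change of Id3 was -0.38 ± 0.14 (adjusted p = 0.0794), which missed the threshold. With the replicate number as a block, which the arrays of this set bear out, it passed (adjusted p = 0.0418), and it also passed without FoxQ1 siRNA array 1 (log2 change of -0.49, adjusted p = 0.0449). Without FoxQ1 siRNA array 2 it was -0.22 (adjusted p = 0.227). Id4 had a log2 change of -0.11 (95% confidence interval -0.27 to 0.06, adjusted p = 0.406).

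Against untreated control siRNA cells, those with FoxQ1 siRNA and TGF-b1 still had lower Id1, Id2 and Id3, where 18.6% of all genes were called lower. Limma gave a log2 change of -1.80 ± 0.15 for Id1 (adjusted p = 3.52e-06), -1.78 ± 0.17 for Id2 (adjusted p = 8.74e-06) and -1.18 ± 0.14 for Id3 (adjusted p = 4.26e-05). This comparison shares its untreated arrays with the 40 h comparison, where the same genes had -1.77, -2.57 and -0.80. Id2 with FoxQ1 siRNA thus lay between the other groups, at a mean of 10.96 ± 0.39, with 10.18 ± 0.17 under control siRNA with TGF-b1 and 12.74 ± 0.16 without TGF-b1 (SD, n = 3 each). Against untreated cells 2 of 8 epithelial markers were higher with FoxQ1 siRNA and TGF-b1 (Cldn4 and Epcam) and 1 lower (Krt19), and 1 of 5 macrophage and leukocyte markers was higher (Cd68), where 19.3% of all genes were called higher. Markers also moved between FoxQ1 siRNA and control siRNA with TGF-b1, where 11.3% of all genes were called higher. There 3 of 8 epithelial markers were called higher (Cdh1, Epcam and Cldn4), and the mean log2 value of all 8 per array ran from 9.98 to 10.13 with FoxQ1 siRNA and TGF-b1, against 9.67 to 9.72 with control siRNA and TGF-b1. Of 5 macrophage and leukocyte markers 2 were called higher (Ptprc and Cd68), with means over the 5 of 6.45 to 6.57 with FoxQ1 siRNA, against 6.36 to 6.41 with control siRNA. By their mean over all arrays none of the 5 lay above the median gene of the table (7.79). The mean of Cd68 with FoxQ1 siRNA was 7.81. With the number as a block 1 of 3 basal markers, Trp63, was also called lower, where 12.1% of all genes were. The part of these markers in the Id2 result was not tested.

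**Figure D3:**
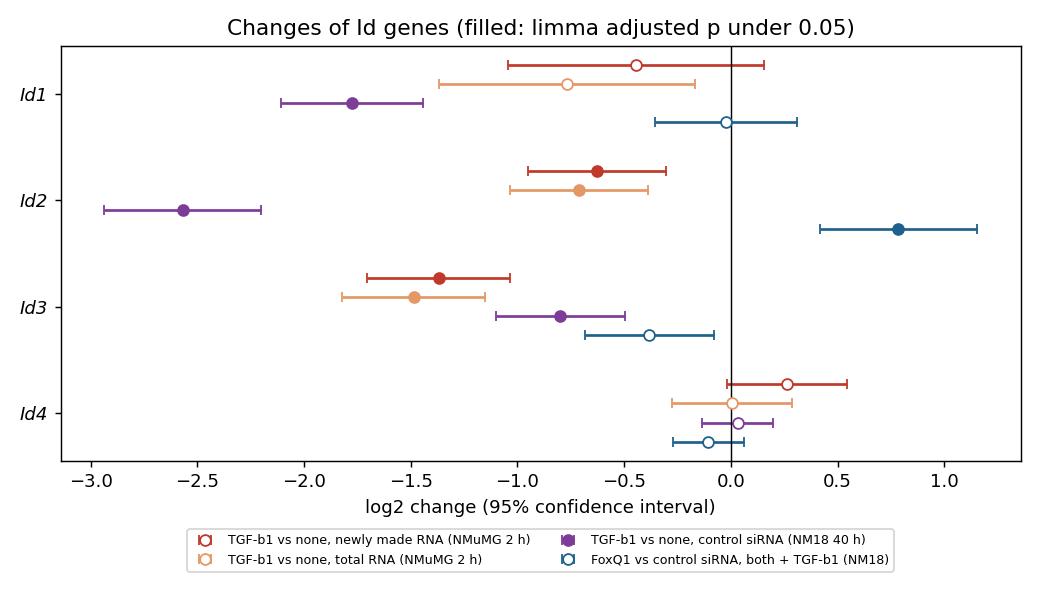
Log2 change (x axis) of each Id gene (y axis) in 4 comparisons, with points for the limma estimate, bars for its 95% confidence interval and filled points for an adjusted p under 0.05. Id3 is furthest left in the NMuMG comparisons, Id2 is furthest left at 40 h and is the only filled point for FoxQ1 siRNA, at 0.78, and no Id4 point is filled.

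**Figure D4:**
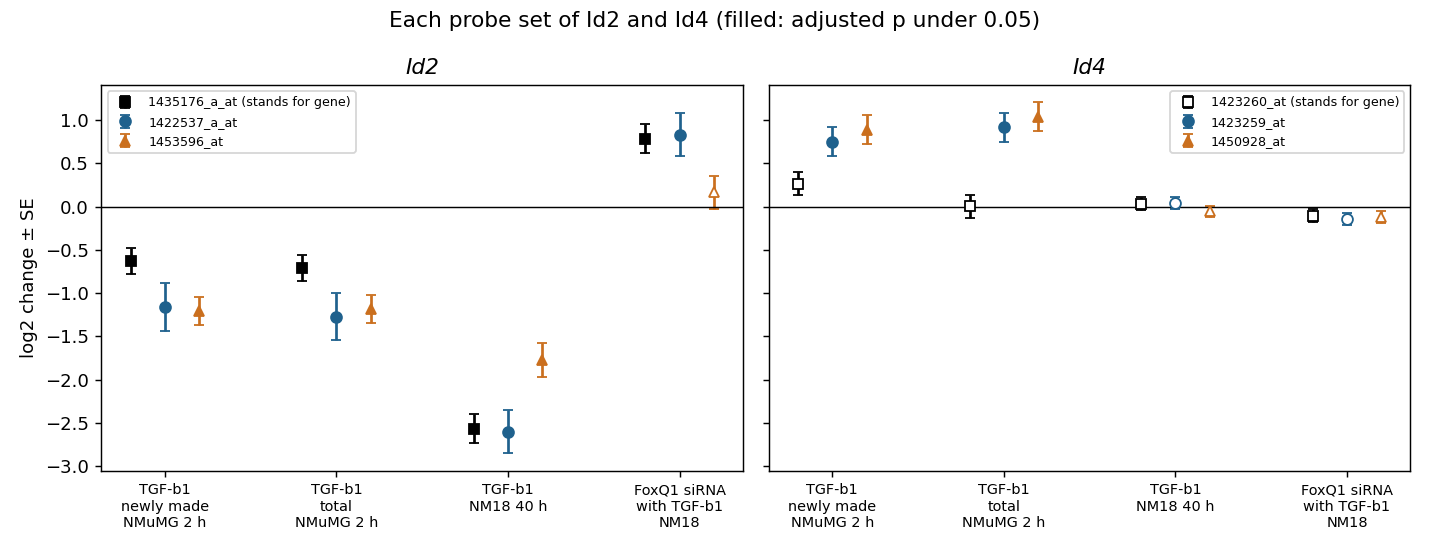
Log2 change (y axis, ± SE) of each probe set of Id2 and Id4 in 4 comparisons (x axis), filled for an adjusted p under 0.05. The 3 Id2 sets lie below 0 in all TGF-b1 comparisons and 1453596_at is unfilled for FoxQ1 siRNA, while all 3 Id4 sets lie above 0 in NMuMG cells, with 2 of them filled, and none is filled in NM18 cells.

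The E proteins are the direct partners of Id proteins. Of 3 measured, 0 passed the test at 2 h in newly made RNA, where 6.13% of all genes were called, and 0 in total RNA, where 2.48% were. The log2 changes in newly made RNA were 0.03 for Tcf3 (95% confidence interval -0.23 to 0.28, adjusted p = 0.969), -0.01 for Tcf4 (-0.27 to 0.25, adjusted p = 0.989) and 0.21 for Tcf12 (-0.03 to 0.44, adjusted p = 0.413). In total RNA they were -0.09 for Tcf3 (adjusted p = 0.924), -0.11 for Tcf4 (adjusted p = 0.899) and 0.12 for Tcf12 (adjusted p = 0.87). At 40 h Tcf4, which encodes E2-2, rose by 0.57 ± 0.08 on the log2 scale (adjusted p = 0.000284), 1 of 3 where 30.7% of all genes were called. Tcf12, which encodes HEB, had 0.14 (adjusted p = 0.139, and 0.0414 with the replicate number as a block), and Tcf3, which encodes E2A, -0.12 (adjusted p = 0.308). With FoxQ1 siRNA Tcf3 was lower by 0.30 (a log2 change of -0.30, adjusted p = 0.0151), 1 of 3 where 19.6% of all genes were called. Over the 3 the median log2 change was 0.03 in newly made and -0.09 in total RNA, 0.14 at 40 h and -0.09 with FoxQ1 siRNA. That Tcf3 call with FoxQ1 siRNA was lost without FoxQ1 siRNA array 1 (adjusted p = 0.0672) and without control siRNA with TGF-b1 array 1 (0.0542) or 3 (0.0656), and without array 1 of every group (0.209).

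Among the BMP ligands Bmp4, which is known to drive Id genes through SMAD1 and SMAD5, fell with TGF-b1 in both lines. The part of BMP ligands, receptors, SMADs and antagonists in the Id changes was not tested. Bmp4 was the 1 of 8 measured ligands called at 2 h, where 6.13% (newly made) and 2.48% (total) of all genes were called. Its log2 change was -1.23 in newly made RNA (adjusted p = 5.89e-06) and -1.36 in total RNA (adjusted p = 4.05e-06). None rose in the unpaired fit, while the paired fit also called Bmp2 higher in newly made RNA, where 6.16% of all genes were. At 40 h Bmp4 was again the 1 of 8 called, at -1.21 (adjusted p = 0.000315), where 30.7% of all genes were called. The median log2 change of the 8 ligands was 0.06 in newly made RNA, -0.0011 in total RNA and -0.03 at 40 h, against -0.01, -0.03 and 0.0049 over all genes. With FoxQ1 siRNA Bmp4 was higher by 0.83 (adjusted p = 0.0061) and Bmp7 by 0.39 (adjusted p = 0.0448), and Bmp2 was lower (log2 change of -0.68, adjusted p = 0.0123), 3 of 8 where 19.6% of all genes were called. Without array 1 of every group the adjusted p was 0.103 for Bmp4, 0.294 for Bmp7 and 0.0849 for Bmp2, and the Bmp7 call was also lost in 6 of 9 fits that left out 1 array (adjusted p = 0.0589 to 0.144).

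Of 12 BMP receptors and SMADs 2 rose at 2 h and 0 fell, in both kinds of RNA, where 3.35% (newly made) and 1.46% (total) of all genes rose. These were Acvr1, which encodes the type I receptor ALK2, and Bmpr2, which encodes the type II receptor. Acvr1 had a log2 change of 1.38 in newly made RNA (adjusted p = 4.03e-05) and Bmpr2 1.04 (adjusted p = 0.000282). At 40 h 4 of 12 rose and 0 fell, where 13.2% of all genes rose, with 1.47 for Acvr1, 0.79 for Bmpr2, 0.60 for Smad5 and 0.32 for Smad1. Smad1 and Smad5 encode the SMADs that carry BMP signals, and without array 1 of every group their adjusted p was 0.199 and 0.09. Smad1 also missed the threshold without untreated array 1 (adjusted p = 0.0664) or 3 (0.0536) and without TGF-b1 array 1 (0.0509) or 3 (0.0773). With FoxQ1 siRNA 0 of 12 were called by limma, and 2 of 12 had an unadjusted p under 0.05, where 19.6% of all genes were called and 30.2% had such a p. The number as a block called 1 of 12, Bmpr2, lower there, where 12.1% of all genes were. The paired fit called Acvr2b, an activin receptor gene, lower in total RNA at 2 h, where 2.63% were. Over the 12 the median log2 change was 0.11 in newly made and 0.02 in total RNA, 0.07 at 40 h and -0.07 with FoxQ1 siRNA.

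Of 12 antagonists and feedback inhibitors of BMP signals 4 rose and 1 fell in newly made RNA at 2 h, where 3.35% of all genes rose and 2.79% fell. Smad7, the inhibitory SMAD, rose by 0.99 (log2), and Fstl3, a secreted protein that binds activins, by 0.80. Smurf1 rose by 0.75 and Smurf2 by 0.73, both ubiquitin ligases of SMADs, and Tob1, a repressor of BMP signals in mouse bone, had a log2 change of -0.44. In total RNA 3 rose (Smad7 by 1.25, Fstl3 by 0.79 and Smurf1 by 0.62) and Tob1 was lower, at -0.58, where 1.46% of all genes rose and 1.02% fell. Leaving out 1 array ended some of these calls. In newly made RNA the Smurf2 call needed control arrays 1 and 2 and TGF-b1 arrays 2 and 3 (adjusted p = 0.0508 to 0.104 without any of them), and in total RNA the Smurf1 call needed arrays 1 and 2 of both groups (0.0611 to 0.133). Tob1 was lost in newly made RNA in 7 of 12 such fits (0.0504 to 0.139) and in total RNA without control array 1 (0.0565) or TGF-b1 array 3 (0.0647). With the mean of its probe sets Tob1 had -0.18 (adjusted p = 0.253) and -0.29 (0.0786), and in newly made RNA it was also lost with median centring (0.0691). With only the arrays compared the newly made adjusted p was 0.109 for Tob1 and 0.125 for Smurf2. Without array 1 of every group it was 0.134 for Tob1 in newly made and 0.109 for Smurf1 in total RNA. At 40 h 2 of 10 measured rose (Smad7 by 0.94 and Twsg1 by 0.34) and 2 were lower (Bambi, a decoy receptor, at -0.40 and Tob1 at -0.63), where 13.2% of all genes rose and 17.5% fell. Without array 1 of every group Smad7 (adjusted p = 0.0645), Twsg1 (0.0712) and Tob1 (0.102) missed the threshold. With FoxQ1 siRNA 2 of 10 rose, Fst (follistatin) by 0.75 and Twsg1, which encodes a secreted BMP-binding protein, by 0.49, and 0 fell, where 11.3% of all genes rose and 8.28% fell. With the mean of its probe sets Twsg1 was not called at 40 h (0.19, adjusted p = 0.1) or with FoxQ1 siRNA (0.21, adjusted p = 0.106). With the number as a block 3 rose (also Tob1) and 1 fell (Smad6) with FoxQ1 siRNA, where 16.3% of all genes rose and 12.1% fell. The median log2 change of the antagonists was 0.25 in newly made and 0.23 in total RNA, -0.01 at 40 h and -0.02 with FoxQ1 siRNA.

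Among the SMAD-linked repressors of Id genes, Ski and Skil, which encode SMAD corepressors, were the 2 of 4 called at 2 h, with log2 changes of 1.06 and 0.76 in newly made RNA and 1.03 and 1.13 in total RNA, where 6.13% and 2.48% of all genes were called. In newly made RNA the paired fit also called Tgif1 higher, where 6.16% of all genes were. The median log2 change of the 4 was 0.62 in newly made and 0.71 in total RNA, 0.88 at 40 h and 0.20 with FoxQ1 siRNA. At 40 h all 4 were called higher, where 13.2% of all genes were, with Ski at 1.17, Skil at 1.00, Tgif1 at 0.75 and Atf3 at 0.61. Atf3 encodes the factor known to join SMAD3 on the ID1 gene in human epithelial cells, and Tgif1 a SMAD corepressor whose adjusted p was 0.0819 without array 1 of every group. With FoxQ1 siRNA Ski was higher (0.60) and Atf3 lower (-0.78, adjusted p = 0.00117), 2 of 4 where 19.6% of all genes were called. With the number as a block Tgif1 was called higher there too, where 16.3% of all genes were. The part of these repressors in the Id changes was not tested.

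Of 11 other genes that answer BMP signals, 1 rose and 0 fell at 2 h in each kind of RNA, and that was Smad7, where 3.35% (newly made) and 1.46% (total) of all genes rose. The paired fit gave 2 higher and 2 lower in newly made RNA, adding Bambi, Hes1 and Hey1. It called 6.16% of all genes higher there and 6.59% lower. In total RNA it gave 1 higher and 1 lower, adding Hes1, where 3.01% and 2.63% of all genes were. At 40 h 1 rose and 3 were lower, namely Hey1 (-0.74), Hes1 (-0.56) and Bambi (-0.40), of which Hey1 and Hes1 encode bHLH repressors, where 13.2% of all genes rose and 17.5% fell. With FoxQ1 siRNA 0 of 11 were called by limma, and 2 had an unadjusted p under 0.05, where 19.6% of all genes were called and 30.2% had such a p. With the number as a block Hes1 was called higher there and Smad6 lower, 2 of 11, where 16.3% of all genes were called higher and 12.1% lower. Their median log2 change was 0.11 in newly made and 0.11 in total RNA, -0.00043 at 40 h and -0.02 with FoxQ1 siRNA. The Hes1 call at 40 h was lost without untreated array 3 (adjusted p = 0.114) and without TGF-b1 array 1 (0.111) or 2 (0.123), without array 1 of every group (0.0589) and with only the arrays compared (0.0518). Of 19 other bHLH genes 1 rose in newly made RNA at 2 h, Bhlhe40 by 1.51, and 1 fell, Hes6 at -0.54, where 3.35% of all genes rose and 2.79% fell. Bhlhe40, which encodes a repressor tied to the circadian clock, also rose by 1.68 in total RNA, the 1 of 19 called there, where 2.48% of all genes were, and by 1.39 at 40 h. The paired fit gave 2 higher and 5 lower in newly made RNA, where 6.16% of all genes were called higher and 6.59% lower. In total RNA it gave 2 higher and 3 lower, where 3.01% and 2.63% of all genes were. The Hes6 call was lost without control array 2 (adjusted p = 0.0896) or 3 (0.0608) and without TGF-b1 array 3 (0.153), without array 1 of every group (0.0662) and with the mean of its probe sets (log2 change of -0.25, adjusted p = 0.264). At 40 h 2 of 19 were called higher (Bhlhe40, and Scx at 0.40) and 3 lower (Hey1, Hes1, and Hif1a at -0.35), where 13.2% of all genes were called higher and 17.5% lower. With the number as a block 3 were called higher there (also Myc), where 17% of all genes were. The Scx call was lost without untreated array 1 (adjusted p = 0.112) or 3 (0.0641) and without TGF-b1 array 3 (0.113), and the Hif1a call without untreated array 3 (0.12) and without TGF-b1 array 1 (0.115) or 2 (0.101). Both were lost without array 1 of every group (0.0965 for Scx and 0.177 for Hif1a), and Hif1a with the mean of its probe sets (-0.20, adjusted p = 0.0611). With FoxQ1 siRNA 1 of 19 was called, Hes6, which was higher by 0.70, where 19.6% of all genes were called. With the number as a block 2 of 19 were called higher there and 2 lower, where 16.3% and 12.1% of all genes were. Over the 19 the median log2 change was -0.04 in newly made and 0.05 in total RNA, 0.05 at 40 h and -0.02 with FoxQ1 siRNA.

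Cdh1, the E-cadherin gene that E proteins can repress, had a log2 change of -1.04 at 40 h (adjusted p = 1.04e-05) and 1.05 with FoxQ1 siRNA (adjusted p = 1.3e-05). It was the 1 of 5 cell-cycle and junction targets called in each, where 30.7% of all genes were called at 40 h and 19.6% with FoxQ1 siRNA. With the number as a block Cdkn2a, a cell-cycle inhibitor gene, was called higher as well with FoxQ1 siRNA, where 16.3% of all genes were. None of the 5 was called at 2 h, and none had an unadjusted p under 0.05. Their median log2 change was 0.05 in newly made and -0.02 in total RNA, -0.06 at 40 h and 0.19 with FoxQ1 siRNA.

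**Figure D5:**
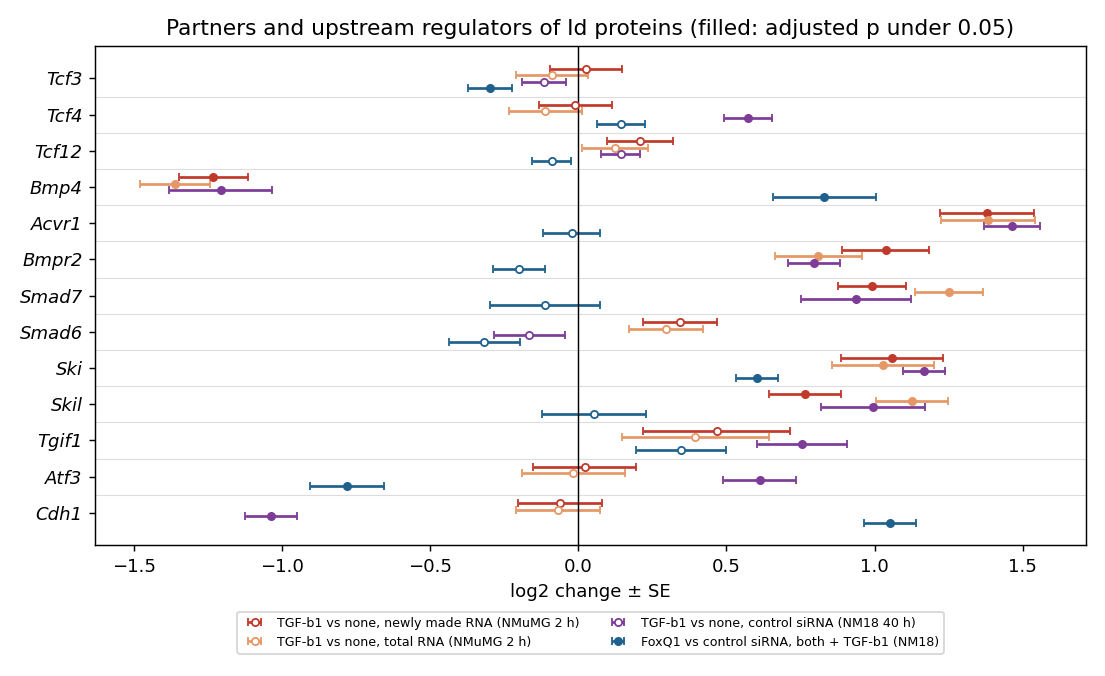
Log2 change (x axis, ± SE) of partners, upstream regulators and a target of Id proteins (y axis) in 4 comparisons, filled for an adjusted p under 0.05. Bmp4 lies below -1 in all TGF-b1 comparisons and at 0.83 with FoxQ1 siRNA, Acvr1, Bmpr2, Smad7, Ski and Skil lie above 0.7 with TGF-b1, and Cdh1 lies at -1.04 at 40 h and 1.05 with FoxQ1 siRNA.

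The genes whose values ran most like each Id gene were found by Pearson correlation over all arrays of a table, among genes with a mean above the table's median. These correlations describe points that share group, table and scaling. Over the 12 NMuMG arrays Id1 ran most like Tm2d3 (r = 0.93), Snx8 (0.93) and Bcl7b (0.91), Id2 ran most like Slc40a1 (r = 0.98), Mavs (0.95) and Spry1 (0.95), and Id3 most like Hs3st1, Pim3 and Cxcl5 (0.96 each). Slc40a1 encodes the iron exporter ferroportin and Spry1 an inhibitor of growth factor signals. Over the 9 NM18 arrays the closest were Mrps18a, Rpa3 and Amacr for Id1 and Gpt, Exoc6 and Cep89 for Id2 (0.99 each). For Id3 they were Mid1ip1, Wwc1 and Mis12 (0.98 each). Between the Id genes themselves, Id1 and Id2 had r = 0.94 over the NM18 arrays and 0.10 over the NMuMG arrays. Id1 and Id3 had 0.87 and 0.52, and Id2 and Id3 had 0.71 and 0.76. Control total RNA array 3 stood apart for Id1, at 11.10, and the NMuMG correlations of Id1 were not computed without it.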

How the data were processed

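RNA of cultured cells was hybridised to Affymetrix mouse arrays, 12 for NMuMG and 9 for NM18 cells. Per the labels' protocols, 4sU-labelled RNA was enriched for the newly made groups, and NM18 RNA was labelled from the 3' end by in vitro transcription. The deposited values were summarised per probe set by the authors and were read as log2 values from their range (2.34 to 14.8 and 4.57 to 14.6), since no label states the scale. No source used here says how they were summarised and normalized. The submitters' processing notes list affy 1.18.2, with no step beside it. Of 45101 NMuMG probe sets 34945 had 1 gene symbol in the platform annotation, 932 several and 9160 none, and of 22690 NM18 probe sets 20380, 691 and 1555 did. Only those with 1 symbol were used.

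Arrays were grouped by title. One limma 3.58.1 fit per table (R 4.3.3, lmFit and eBayes) over all its groups gave each comparison, two-sided, with Benjamini-Hochberg adjustment over all genes and a threshold of 0.05. The procedure was tested on simulated data. No 2 arrays of the same group shared an identical value for any gene. Precision is limited by having 3 arrays a group. The members and gene lists were chosen with earlier results of these data known, so none of the lists is independent support. Named genes were the Id genes, Foxq1, the E proteins, up to 4 members of each other list with the smallest p, and per Id gene the 3 genes most like it, with further called list members named after their values were seen. Replicate numbers are shared between groups. In NM18 cells all 9 pairs of same-numbered arrays deviated together (r = 0.16 to 0.61), so the numbers pair those arrays, and the block is given where it changes a call. In NMuMG cells 14 of 18 pairs did (r over 0.1), and all 6 within a kind of RNA did (r = 0.12 to 0.73), so a block within each kind of RNA is the paired fit there. List counts in the paired fits were added after seeing the data. Alternatives were other scalings, filters, probe sets, blocks and left-out arrays.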

Additional observations from a re-analysis of the deposited data

How the results depend on the processing

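The 4 Id genes gave 32 results over 8 comparisons and 611 values under the alternatives, of which 540 kept their direction and side of the threshold, 29 lost a call, 15 gained one and 27 turned sign. The falls of Id3 at 2 h in both kinds of RNA and of Id1, Id2 and Id3 at 40 h, and those against untreated cells with FoxQ1 siRNA, held in every alternative run. Values below are log2 changes, and the cause of each change was not tested. With the mean of all probe sets Id4 gave 0.63 in newly made and 0.65 in total RNA at 2 h, -0.019 for their difference, and 0.33 and 0.31 for newly made against total RNA without and with TGF-b1. The other Id4 probe sets 1423259_at and 1450928_at gave 0.75 and 0.89 for newly made RNA, 0.92 and 1.04 in total RNA and -0.17 and -0.15 for their difference. For newly made against total RNA they gave 0.033 and 1.02 without TGF-b1 and -0.13 and 0.88 with it, of which 1.02 and 0.88 were called higher. Probe set 1450928_at gave -0.055 at 40 h. Id2 gave 0.59 for FoxQ1 siRNA with the mean of its probe sets and 0.16 with 1453596_at, which gave -0.026 for the difference of the TGF-b1 effects. Its set 1422537_a_at gave 0.54 without and 0.65 with TGF-b1 for newly made against total RNA, both no longer called. Quantile normalization gave -0.60 for Id2 in total RNA at 2 h (adjusted p = 0.061), -0.15 (Id2) and -0.081 (Id3) for the difference of effects, and for newly made against total RNA -0.65 for Id1 without TGF-b1 and -0.037 for Id4 with it. Median centring gave 0.18, -0.13 and -0.31 for Id2, Id3 and Id4 in newly made against total RNA without TGF-b1 and 0.29 and -0.028 for Id2 and Id4 with it. It turned the split of all genes there to 2248 higher and 9297 lower (main 3131 and 4877) without TGF-b1 and 2534 and 8817 (main 3321 and 4872) with it. With only the compared arrays Id1 stayed at -0.72 without TGF-b1 but was no longer called, and at -0.40 with TGF-b1 was called, and with the mean of probe sets that without TGF-b1 had an adjusted p of 0.054.

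The replicate block over all groups left the Id3 change of -0.38 with FoxQ1 siRNA called (adjusted p = 0.0418) and the Tcf12 change of 0.14 at 40 h called, and ended none of the calls of named genes. Further calls that it added at 40 h and between FoxQ1 and control siRNA stand with their gene lists and markers. A block within each kind of RNA left Id1 in total RNA at -0.77 and called it (adjusted p = 0.00582), and this paired fit, run without 1 number of every group after seeing the data, gave -0.94, -1.01 and -0.36 without number 1, 2 and 3. It could not be run for newly made against total RNA. Leaving out 1 array at a time gave ranges of -0.68 to -0.56 for Id2 in newly made and -0.83 to -0.52 in total RNA, and -0.49 to -0.22 for Id3 and -0.14 to 0.11 for Id1 with FoxQ1 siRNA. For newly made against total RNA they were -1.03 to -0.28 for Id1, 0.35 to 0.53 for Id2 and -0.15 to 0.075 for Id4 without TGF-b1, and 0.32 to 0.63 for Id2 with it. The difference of effects ran from -0.12 to 0.63 for Id1, -0.11 to 0.20 for Id2 and -0.053 to 0.23 for Id3. Id4 ran from -0.094 to 0.074 in total RNA and -0.030 to 0.081 at 40 h. Without number 1 of every group Id1 with FoxQ1 siRNA turned to 0.047. Of the E proteins at 2 h in newly made RNA, Tcf3 gave -0.087 with the mean of probe sets, -0.076 without number 1 and -0.045 to 0.12 with 1 array left out, and Tcf4 gave 0.039 with the mean, 0.0058 with median centring and -0.094 to 0.063. In total RNA Tcf3 ran from -0.15 to 0.00098.

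The number of genes called moved by over 1.5 times in some fits. In newly made RNA at 2 h it was 1116, 680 with only the compared arrays, 2320 with the block within each kind of RNA and 758 to 1288 with 1 array left out, and in total RNA 452, 701 with the block, 1025 with the block within each kind and 308 to 524. The difference of effects had 12, 19 with quantile normalization, 39 and 86 with the blocks, 25 without number 1 and 4 to 20 with 1 array left out. Without number 1 the counts were 2043 at 40 h (main 3807), 926 with FoxQ1 siRNA (main 2425) and 3044 against untreated cells (main 4695). Id4 lies below the median gene of both tables and was not tested with that filter.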
